A study of Mus musculus with 55 samples.

Results

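The 10 members described here are mouse genes that encode alpha- or beta-tubulin, followed across 24 oocyte RNA sequencing libraries: the alpha-tubulin genes Tuba1a, Tuba1b, Tuba1c, Tuba3a, Tuba3b and Tuba4a and the beta-tubulin genes Tubb2a, Tubb2b, Tubb3 and Tubb5. The members were chosen by gene symbol, as 10 of the 33924 genes of the count table, with results of the growing oocyte comparison already known. In that comparison Tuba3b had been seen to be low in sko oocytes. The members' values in that comparison are therefore described, with no p-value printed and nothing read from their calls. The same table holds 16 genes with alpha- or beta-tubulin symbols, and the other 6 (Tuba8, Tubal3, Tubb1, Tubb2c, Tubb4 and Tubb6) are given only where a sum or a contrast turns on them.

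The series addresses RNA G-quadruplexes, folded structures of guanine-rich RNA, and DHX36 (also called RHAU), a helicase that unwinds them. Gene counts came from 4 experiments. Growing oocytes came as growing_control (3 libraries) and growing_Dhx36_sko (3 libraries, numbered 4 to 6), the latter from Dhx36fl/fl;SKO mice per the extraction protocol. The labels do not spell out sko, nor the promoter behind the deletion. The second experiment held oocytes named c (replicates 1 and 2), c_DRB (replicate 3), rhau_sko (replicate 5) and rhau_sko_DRB (replicates 7 and 8). DRB inhibits CDK9, a kinase of transcription elongation. A shallow c_DRB library (replicate 4) and a shallow rhau_sko library (replicate 6) of that experiment were left out. Germinal vesicle oocytes, the immature stage with an intact nucleus, were GV_C (3 libraries) and GV_cPDS_12h (3 libraries, 12 h on the label), cPDS being carboxypyridostatin, a compound that binds RNA G-quadruplexes and holds them folded. The Trim experiment held Trim_control_3h and Trim21_3h (3 libraries each, 3 h on the label), whose titles also name Dhx36. Trim-Away delivers an antibody and the ubiquitin ligase TRIM21 to degrade the protein that the antibody binds. The protocol text attached to all these samples names growing oocytes from control and Dhx36fl/fl;SKO mice, also for the libraries with GV in the title. Strain, age and the number of oocytes in a library are not in the labels. Whether replicates are separate animals is not stated either, so the p-values measure the spread between these libraries, which may be technical.

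Microtubules are polymers of a heterodimer of 1 alpha- and 1 beta-tubulin. Each protein is encoded by several genes, the isotypes, whose products differ mostly in the acidic tail at the end of the chain that binds motors and carries chemical marks. In the oocyte, stored tubulin builds the meiotic spindle that parts the chromosomes. Cells also adjust tubulin RNA to the amount of free tubulin, by decay of tubulin mRNA while it is being translated. Tuba3a and Tuba3b are near-identical genes best known from testis, Tuba1a, Tubb2a, Tubb2b and Tubb3 are best known from neurons, Tuba1b, Tuba1c and Tubb5 are widely expressed, and Tuba4a is known as the alpha-tubulin gene whose product lacks the final tyrosine that other alpha-tubulins carry.

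Per the files' mm9 coordinates, Tuba3a (ENSMUSG00000067702.5) lies on chromosome 6 from 125228292 to 125236060 on the minus strand and Tuba3b (ENSMUSG00000067338.6) on the same chromosome from 145564277 to 145569999 on the plus strand. Tuba1b, Tuba1a and Tuba1c share 106.681 kb of chromosome 15, in the order 98761856 to 98764996 (minus), 98780272 to 98783982 (minus) and 98860322 to 98868536 (plus). Tubb2a (34166170 to 34169877) and Tubb2b (34218877 to 34222223) lie within 56.054 kb of chromosome 13, both on the minus strand. Tuba4a is on chromosome 1 (75211549 to 75215828, minus), Tubb3 on chromosome 8 (125935324 to 125945915, plus) and Tubb5 on chromosome 17 (35970871 to 35975251, minus). The counts are taken over all exons of a gene, 1509 bases for Tuba3a and 1775 bases for Tuba3b. The coding parts of these copies are close enough to share reads, and the labels and headers do not say how reads that match several genes were counted. Levels of Tuba1a, Tuba1b and Tuba1c, of Tuba3a and Tuba3b, and of Tubb2a and Tubb2b are therefore uncertain one by one, and each pair or trio was also summed. Tuba4a was the member whose exons overlap another gene, Stk16 on the opposite strand, which held 2219 counts against 114197 for Tuba4a over 18 libraries.

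The start regions of the Tuba3 pair are shown because the pair moved together in some comparisons and apart in others. The sequences are the 250 bases before each gene's start, from RefSeq with build GRCm38.p6 (whose coordinates are not those of mm9), at chr6:125286082-125286331 (minus strand) for Tuba3a and chr6:145615713-145615962 (plus strand) for Tuba3b. Capitals mark bases that lie in a stretch of at least 10 bases also found in the other sequence, and overlapping stretches join.
Tuba3a: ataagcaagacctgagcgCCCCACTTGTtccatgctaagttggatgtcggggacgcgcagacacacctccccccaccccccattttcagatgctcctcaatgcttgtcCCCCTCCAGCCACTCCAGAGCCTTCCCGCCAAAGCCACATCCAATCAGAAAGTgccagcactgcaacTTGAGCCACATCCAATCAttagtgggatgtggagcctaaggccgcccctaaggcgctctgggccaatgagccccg
Tuba3b: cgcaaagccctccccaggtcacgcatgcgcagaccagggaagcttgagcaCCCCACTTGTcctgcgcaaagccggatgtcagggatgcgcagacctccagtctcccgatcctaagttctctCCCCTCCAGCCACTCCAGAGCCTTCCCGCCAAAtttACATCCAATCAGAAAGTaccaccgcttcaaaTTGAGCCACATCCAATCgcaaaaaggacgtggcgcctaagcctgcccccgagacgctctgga
Capitals took 81 bases of Tuba3a and 77 bases of Tuba3b, and the longest identical stretch of the pair had 33 bases.

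Since the study is about G-quadruplexes, the same windows were searched for 4 runs of at least 3 G separated by 1 to 7 bases, on both strands. A RefSeq window matched 9 of the 10 members, all but Tubb2b. The letters occurred in 2 of the 9, Tuba1c (chr15:99029641-99029890, plus strand, starting 235 bases before the gene) and Tubb3 (chr8:123411303-123411552, plus strand, starting 240 bases before the gene), shown with the match in capitals.
Tuba1c: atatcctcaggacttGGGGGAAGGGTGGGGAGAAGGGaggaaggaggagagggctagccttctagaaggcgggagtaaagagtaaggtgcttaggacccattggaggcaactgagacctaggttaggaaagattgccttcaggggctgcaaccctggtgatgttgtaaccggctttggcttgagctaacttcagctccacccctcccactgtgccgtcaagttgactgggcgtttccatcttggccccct
Tubb3: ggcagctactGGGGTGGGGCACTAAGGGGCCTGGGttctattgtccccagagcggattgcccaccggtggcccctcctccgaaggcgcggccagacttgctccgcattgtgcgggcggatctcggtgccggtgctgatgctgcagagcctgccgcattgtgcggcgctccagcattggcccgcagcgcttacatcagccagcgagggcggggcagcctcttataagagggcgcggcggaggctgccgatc
Of all 32851 windows in the table, 16.7% held such a match. The search describes DNA upstream of the genes and not their transcripts.

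Total counts ran from 31930695 to 41075545 in growing oocytes, from 23010562 to 40968105 in the second experiment, from 26509060 to 65444652 in the GV oocytes and from 7452742 to 32704737 in the Trim libraries. Levels are normalised CPM (counts on a common library size of 1000000, after TMM scaling, which evens out libraries by their common genes). Dhx36 fell in both sko sets (from 8.77 to 2.17 and from 42.6 to 5.95 CPM on average) and in Trim21 (from 30.5 to 7.72 CPM), and it was higher with cPDS (21.5 to 35.5 CPM). Trim21 averaged 14.7 CPM in the Trim controls and 8468 CPM in Trim21. A panel of 10 oocyte markers, such as Zp3 and Gdf9, took 3.57% to 3.61% of the counts in growing control and 3.24% to 3.74% in growing sko, 1.85% to 2.09% in the deep c libraries and 1.51% to 1.54% in the second sko set, 2.49% to 2.71% in GV_C and 3.19% to 3.54% with cPDS, and 2.01% to 2.25% in Trim controls and 2.03% to 2.098% in Trim21. None of the 10 was at 0 in any group. Of the 10, 1 was called higher and 4 lower in growing sko (median log2 fold change -0.11), beside 28.5% and 25.2% of all genes. In the second sko set 0 were higher and 6 lower (median -0.50), beside 19.2% and 16.8%. With cPDS 7 were higher and 2 lower (median 0.44), beside 23.4% and 27.4%. In Trim21 0 were higher and 0 lower, beside 6.26% and 5.23%. Mitochondrial genes took 0.126% to 0.170% of the counts in the deep c libraries and 0.302% to 0.633% in the second sko set. A panel of 10 granulosa and cumulus markers, such as Fshr and Inha, took 0.00229% to 0.00260% in growing control and 0.00846% to 0.00884% in growing sko, 0.00655% to 0.00776% in c and 0.0111% to 0.0150% in the second sko set, 0.0110% to 0.0113% in GV_C and 0.00893% to 0.0102% with cPDS, and 0.00473% to 0.00479% in Trim controls and 0.00684% to 0.00755% in Trim21. Amh, a defining marker of these cells, was at 0 in every Trim library and in every deep library of the second experiment. It was the only one of the 10 at 0 in c and in rhau_sko_DRB. The number of these markers at 0 was 3 in c_DRB, rhau_sko and Trim controls, 2 in Trim21 and 0 in the growing and GV groups. Of the granulosa markers tested, 4 of 7 were higher and 0 lower in growing sko, beside 28.5% and 25.2% of all genes. In the second sko set 3 of 5 were higher and 0 lower, beside 19.2% and 16.8%. With cPDS 2 of 7 were higher and 2 lower, beside 23.4% and 27.4%. In Trim21 1 of 5 was higher and 0 lower, beside 6.26% and 5.23%. The part of these marker and mitochondrial differences in the tubulin results was not tested. In such libraries, fewer cells of a type and less RNA per cell cannot be told apart.

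Tuba3a led the members in every control group. To compare genes, levels were divided by exon length (CPM per kilobase). In growing control, Tuba3a reached 346 ± 84.4 CPM per kilobase (SD, n = 3), Tuba4a 169 ± 24.05 and Tuba1c 121 ± 20.05, and the ranges of Tuba4a and Tuba1c overlapped. The beta members stood much lower there, with Tubb2a at 39.0 ± 2.82, Tubb3 at 34.4 ± 5.25 and Tubb5 at 20.1 ± 3.23 CPM per kilobase. Tuba3b, at 32.5 ± 11.1 CPM per kilobase, overlapped its neighbours Tubb3 and Tubb5 in this order, and so did Tubb5 and Tuba1b (18.8 ± 6.12). Tubb2b (2.19 ± 0.758) and Tuba1a (1.27 ± 0.224) closed the order in growing control. The isotypes best known from neurons were thus not alike in the oocyte: Tubb2a and Tubb3 stood near Tuba3b or above it, while Tuba1a and Tubb2b were near the bottom of every group.

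The order of the members in the other control groups had the same first and last gene. Outside the 10, Tubb2c averaged 303 CPM per kilobase in GV_C, 114 in the deep c libraries and 126 in the Trim controls. GV_C held Tuba3a at 294 ± 20.3, Tubb2a at 206 ± 27.8 and Tubb3 at 83.9 ± 10.9 CPM per kilobase (SD, n = 3), with the range of Tubb3 overlapping that of Tuba4a (75.9 ± 2.42). In the 3 deep c libraries, with and without DRB, Tuba3a (119 ± 15.9) and Tubb2a (104 ± 12.4) overlapped, and in the Trim controls they did too (88.0 ± 9.33 and 77.1 ± 15.3). Tuba1c, the third gene of growing control, averaged 26.1 ± 2.11 in the deep c libraries, 27.1 ± 6.13 in GV_C and 16.9 ± 2.80 CPM per kilobase in the Trim controls. The experiments were normalised apart, and the labels do not say whether they were made together. Their levels are therefore set side by side and were not tested against each other. The plot of levels by library shows the members gene by gene.

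**Figure D1:**
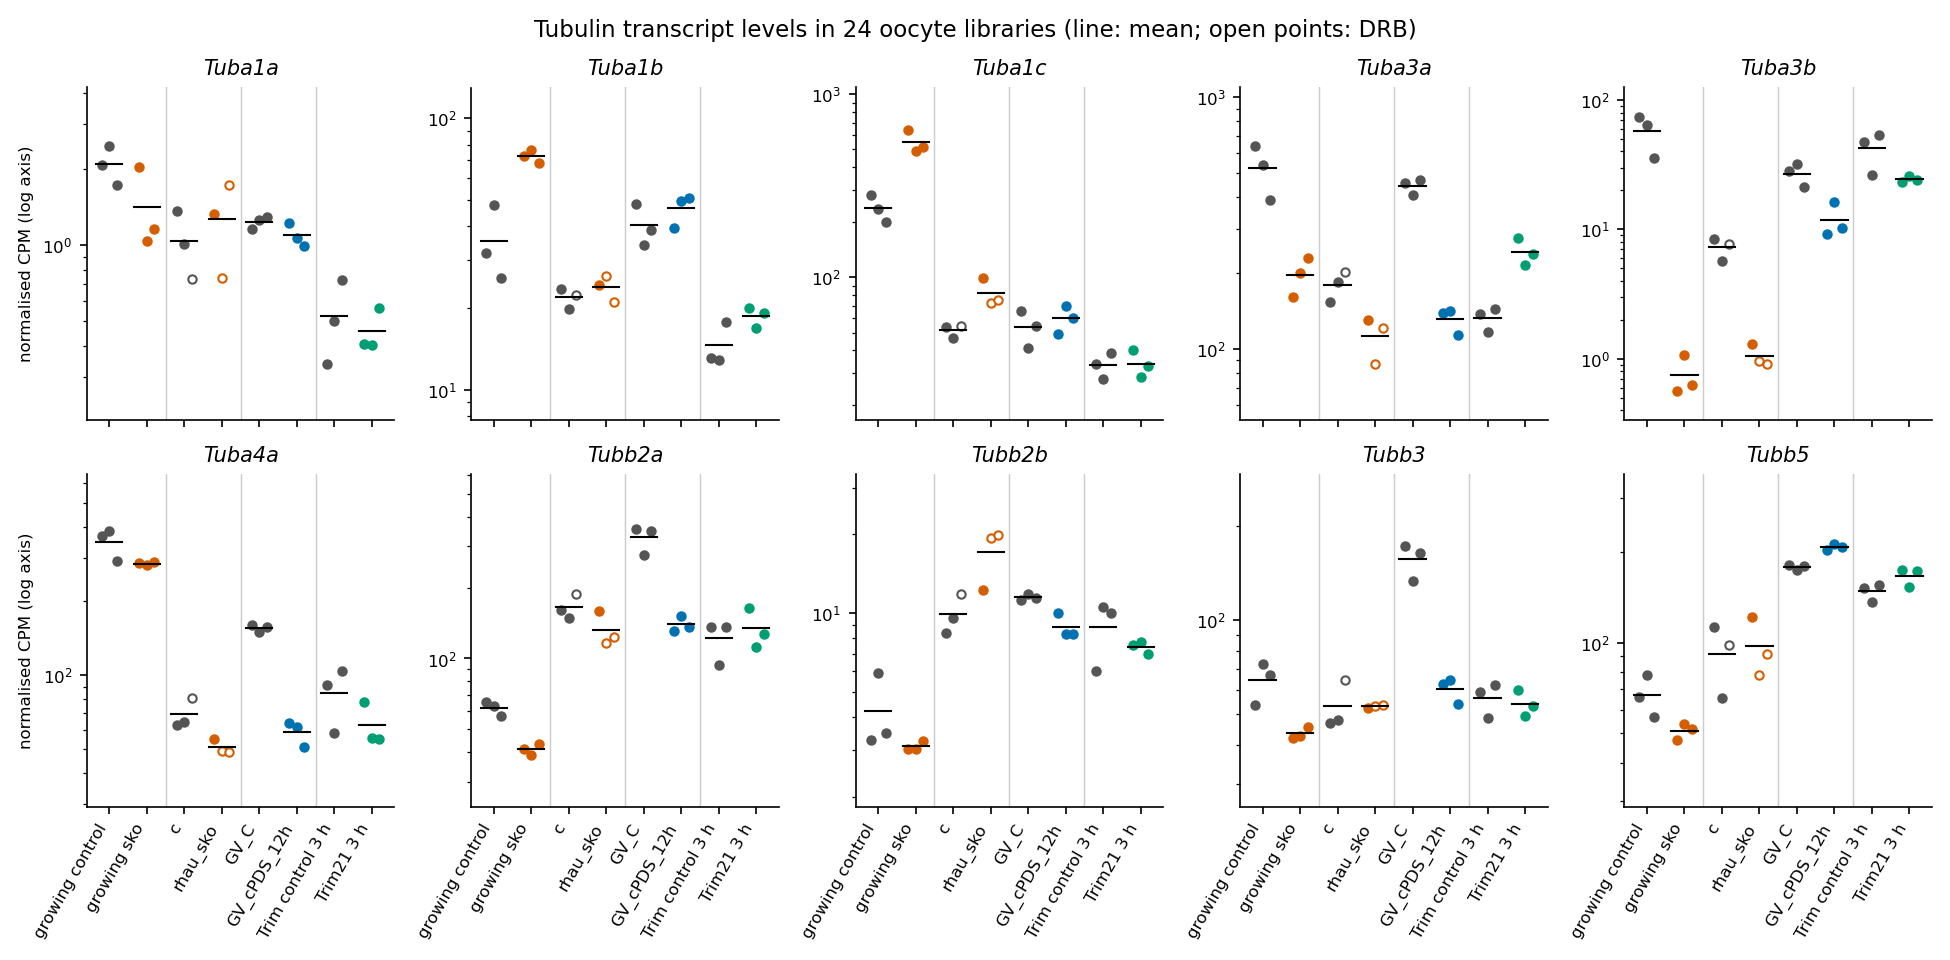
Each panel shows 1 tubulin gene, with normalised CPM on a log axis whose range differs between panels and the 8 groups of the 4 experiments along the x axis. Points are libraries (open where DRB was added) and lines are group means. Tuba3b drops to about 1 CPM in both sko sets, Tuba1c lies higher in both, and Tuba3a is low with cPDS and high in Trim21.

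In growing oocytes the Tuba3 genes were low and Tuba1b and Tuba1c high in the sko libraries, and the beta members were all somewhat lower. Tuba3b read 73.4, 63.9 and 35.5 CPM in the controls and 0.561, 1.07 and 0.629 CPM in sko, where it rested on 21, 41 and 24 counts. Its mean was 76.6-fold lower, with a log2 fold change of -6.25 ± 0.30 (standard error, SE), and no sko library came near a control. Its partner Tuba3a read 642, 537 and 388 CPM in the controls and 160, 199 and 229 CPM in sko, a 2.66-fold lower mean without overlap (log2 fold change -1.41 ± 0.17, SE). The pair summed, with each read counted in either gene, gave a log2 fold change of -1.56, so Tuba3b changed more than the pair as a whole.

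Tuba1c, a widely expressed isotype, moved the other way, from 280, 238 and 201 CPM to 641, 490 and 514 CPM (2.29-fold, log2 fold change 1.19 ± 0.15, SE). Tuba1b, its neighbour in the chromosome 15 group, went from 31.9, 48.1 and 25.9 CPM to 72.7, 76.3 and 68.5 CPM (2.05-fold, 1.04 ± 0.18). Every sko library lay above every control for both genes. Tuba1a, the third gene of that group, stayed at 1.04 to 2.46 CPM with overlapping groups. Tuba4a read 366, 384 and 291 CPM in the controls and 285, 280 and 287 CPM in sko, a difference of -0.29 ± 0.13 on the log2 scale. With Tuba3a low and Tuba1c high, Tuba1c was the leading member per kilobase in growing sko (277 ± 41.0, SD, n = 3), ahead of Tuba4a (138 ± 1.82) and Tuba3a (130 ± 22.8), whose ranges overlapped.

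All 4 beta members had a lower mean in growing sko, by small amounts. Tubb2a went from 65.5, 63.0 and 56.8 CPM to 41.2, 39.0 and 43.1 CPM (1.503-fold lower). Tubb3 went from 53.4, 72.6 and 66.6 CPM to 42.2, 42.6 and 45.7 CPM (1.48-fold lower). Neither gene overlapped between groups. Tubb5, from 65.8, 78.1 and 56.7 CPM to 47.6, 53.9 and 51.7 CPM (1.31-fold lower), came near to touching. Tubb2b was at 3.27, 5.90 and 3.49 CPM in the controls and 3.04, 3.04 and 3.25 CPM in sko.

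By the call used throughout (edgeR adjusted p under 0.05), 2 of the 10 members were higher and 5 lower in growing sko, with a median log2 fold change of -0.50 against 0.02 over 14081 genes. Of all genes tested, 28.5% were higher and 25.2% lower. Nothing is read from the members' count, since this comparison was in view when they were chosen. With library size in place of TMM scaling, the all-gene median went to 0.21 and the calls from 4017 higher and 3549 lower to 4825 and 2386. No member changed sign under that scaling, but the size of the lower values depended on it: Tuba4a went from -0.29 to -0.10, Tubb5 from -0.39 to -0.20 and Tubb2b from -0.43 to -0.25, while Tubb2a stood at -0.40 and Tubb3 at -0.38.

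The second experiment measured sko oocytes in libraries of its own. Tuba3b and Tuba3a were lower and Tuba1c higher, while Tuba1b and 3 of the 4 beta members did not pass the test. Tuba3b read 8.50 and 5.71 CPM in c and 7.75 CPM in c_DRB, against 1.30 CPM in rhau_sko and 0.961 and 0.918 CPM in rhau_sko_DRB. The groups stood well apart, and the fall of 2.75 ± 0.31 on the log2 scale (SE, 6 libraries) passed with an edgeR adjusted p of 7.27e-05. The starting level of Tuba3b was far lower than in growing control, while the sko libraries of both experiments ended near 1 CPM.

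Tuba3a fell by 0.67 ± 0.16 in log2 units (edgeR adjusted p = 0.00859), from 154 and 184 CPM in c and 201 CPM in c_DRB to 130 CPM in rhau_sko and 86.8 and 121 CPM in rhau_sko_DRB. The groups did not overlap, but the call rested on c_DRB replicate 3: without it, the log2 fold change was -0.38 (edgeR adjusted p = 0.227). Tuba1c rose from 53.6, 46.9 and 54.5 CPM to 99.1, 72.6 and 75.1 CPM, with a log2 fold change of 0.71 ± 0.14 (edgeR adjusted p = 0.00269). All 3 sko libraries exceeded all 3 c libraries, and without rhau_sko replicate 5 the log2 fold change was 0.41 (edgeR adjusted p = 0.109). Tuba4a fell by 0.47 ± 0.14 (edgeR adjusted p = 0.0201), from 63.1, 64.6 and 81.0 CPM to 55.3, 49.1 and 48.8 CPM. Its call was lost without c_DRB replicate 3 (-0.21, adjusted p = 0.37) or rhau_sko_DRB replicate 7, and also with the shallow libraries kept. Tuba1b, at 19.9 to 23.6 CPM in c and 21.1 to 26.2 CPM in sko, overlapped throughout (0.12 ± 0.16, edgeR adjusted p = 0.592), while Tuba1a, Tuba1b and Tuba1c summed rose by 0.56 (edgeR adjusted p = 0.00626). Tuba1a stayed between 0.731 and 1.73 CPM.

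Among the beta members, Tubb2b rose from 8.37, 9.53 and 11.8 CPM to 12.2, 19.2 and 19.8 CPM (0.59 ± 0.19 on the log2 scale, edgeR adjusted p = 0.0288). The highest c library and the lowest sko library almost met, and the call was lost without c replicate 1, c_DRB replicate 3 or rhau_sko replicate 5. Both libraries above 19 CPM carried DRB. Tubb2a read 149 to 187 CPM in c and 116 to 159 CPM in sko (-0.30 ± 0.14, edgeR adjusted p = 0.123), and it was called lower without rhau_sko replicate 5 (-0.68, adjusted p = 0.0074). Tubb3 read 46.9 to 64.2 CPM and 52.3 to 53.5 CPM (-0.06 ± 0.13, adjusted p = 0.734). Tubb5 spread widely within each group, over 65.4 to 112 CPM in c and 78.1 to 121 CPM in sko (0.12 ± 0.20, edgeR adjusted p = 0.676). The smallest change that these libraries could detect was not computed.

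In that contrast 2 of the 10 members were called higher and 3 lower, against 19.2% and 16.8% of 16784 genes, and the members' median log2 fold change was 0.03 (0.01 over all genes). The higher count is near the background. The lower count is above it, but rests on few genes, and Tuba3a and Tuba3b among them may share reads. This difference from the background was not tested. For DRB in the same model, edgeR called none of the 10 members. Their log2 fold changes ran from -0.39 to 0.54, and 1 member, Tubb2b (0.54 ± 0.19, edgeR adjusted p = 0.267), was under 0.05 before adjustment. DESeq2 called 0 as well. Over all genes DRB gave 1 higher and 1 lower call, 0.00596% each, so few genes of any kind passed edgeR's test in these 6 libraries.

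With cPDS most members were lower. After the labelled 12 h, 6 of the 10 members were lower and 1 higher than in GV_C, against 27.4% and 23.4% of 16115 genes. The members' median log2 fold change was -0.79 (0.01 over all genes). The GV_C label carries no time, so cPDS and the 12 h cannot be told apart in this contrast. Tuba3a fell from 457, 409 and 466 CPM to 139, 141 and 114 CPM (-1.76 ± 0.09 in log2 units, edgeR adjusted p = 2.05e-10). Tuba4a fell from 160, 150 and 157 CPM to 64.2, 61.5 and 51.2 CPM (-1.40 ± 0.09, adjusted p = 2.52e-09). Tuba3b fell from 28.0, 31.8 and 21.1 CPM to 9.14, 16.4 and 10.2 CPM (-1.20 ± 0.19, adjusted p = 6.12e-05). For all 3 alpha genes each cPDS library lay below each GV_C library.

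Tubb3 and Tubb2a, best known from neurons, fell as well. Tubb3 went from 172, 134 and 164 CPM to 62.4, 64.6 and 53.9 CPM (-1.38 ± 0.10 on the log2 scale, edgeR adjusted p = 1.43e-08). Tubb2a went from 356, 276 and 348 CPM to 131, 152 and 136 CPM (-1.23 ± 0.09, edgeR adjusted p = 2.80e-08). Both groups of 3 were far apart for these genes. Tubb2b, a low member, fell less, from 11.2, 11.8 and 11.4 CPM to 10.01, 8.33 and 8.28 CPM (-0.37 ± 0.12, edgeR adjusted p = 0.0164), and lost its call without cPDS replicate 2 or 3.

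Tubb5 and the Tuba1 genes did not fall with the rest. Tubb5 rose slightly, from 181, 173 and 179 CPM to 202, 212 and 207 CPM, a log2 fold change of 0.22 ± 0.06 (edgeR adjusted p = 0.00787) that was small but larger than the spread within either group. Tuba1b read 48.5, 34.1 and 38.9 CPM in GV_C and 39.6, 49.4 and 50.9 CPM with cPDS (0.20 ± 0.12, edgeR adjusted p = 0.191), and it was called higher without GV_C replicate 1 or without cPDS replicate 1. Tuba1c read 65.5, 41.3 and 54.1 CPM and 49.2, 69.8 and 60.1 CPM (0.15 ± 0.14, adjusted p = 0.406). The groups of Tuba1b, Tuba1c and Tuba1a overlapped.

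In the Trim experiment the Tuba3 genes moved apart. Tuba3a rose from 137, 117 and 144 CPM in the controls to 277, 216 and 237 CPM in Trim21, a log2 fold change of 0.87 ± 0.13 (SE, n = 3 against 3, edgeR adjusted p = 0.000759). The lowest Trim21 library lay well above the highest control, and the call held whichever library was left out. Tuba3b read 47.0, 26.3 and 53.6 CPM in the controls and 23.4, 25.98 and 24.1 CPM in Trim21 (-0.79 ± 0.22, edgeR adjusted p = 0.0363). Control replicate 2 lay almost level with the Trim21 libraries, and the call was lost in 5 of the 6 fits that left out a library, all but the fit without that control, with adjusted p up to 0.158. Summed, the pair rose by 0.61 on the log2 scale (edgeR adjusted p = 0.0112).

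The other members did not pass in Trim. Tuba4a read 91.6, 58.5 and 104 CPM in the controls and 77.9, 55.6 and 55.2 CPM in Trim21 (-0.42 ± 0.20, edgeR adjusted p = 0.223) and was called lower without control replicate 2. That control was also the lowest of its group for Tuba1b, Tuba1c, Tuba3a, Tuba3b, Tubb2a, Tubb3 and Tubb5, but not for Tuba1a or Tubb2b. Mitochondrial genes took 0.613% of its counts, against 0.180% and 0.166% in the other controls. In Trim21 they took 0.0617%, 0.219% and 0.451%. Tuba1b (0.37 ± 0.18), Tubb5 (0.17 ± 0.11), Tubb2a (0.14 ± 0.17), Tuba1c (0.02 ± 0.17), Tubb3 (-0.06 ± 0.14) and Tubb2b (-0.26 ± 0.24) all had overlapping groups. Tuba1a, with 3 to 13 counts a library, was too low to be tested. Of the 9 members tested, 1 was higher and 1 lower, beside 6.26% and 5.23% of 14191 genes, with a median log2 fold change of 0.02 (-0.01 over all genes). The plot of log2 fold changes sets the 4 comparisons side by side.

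**Figure D2:**
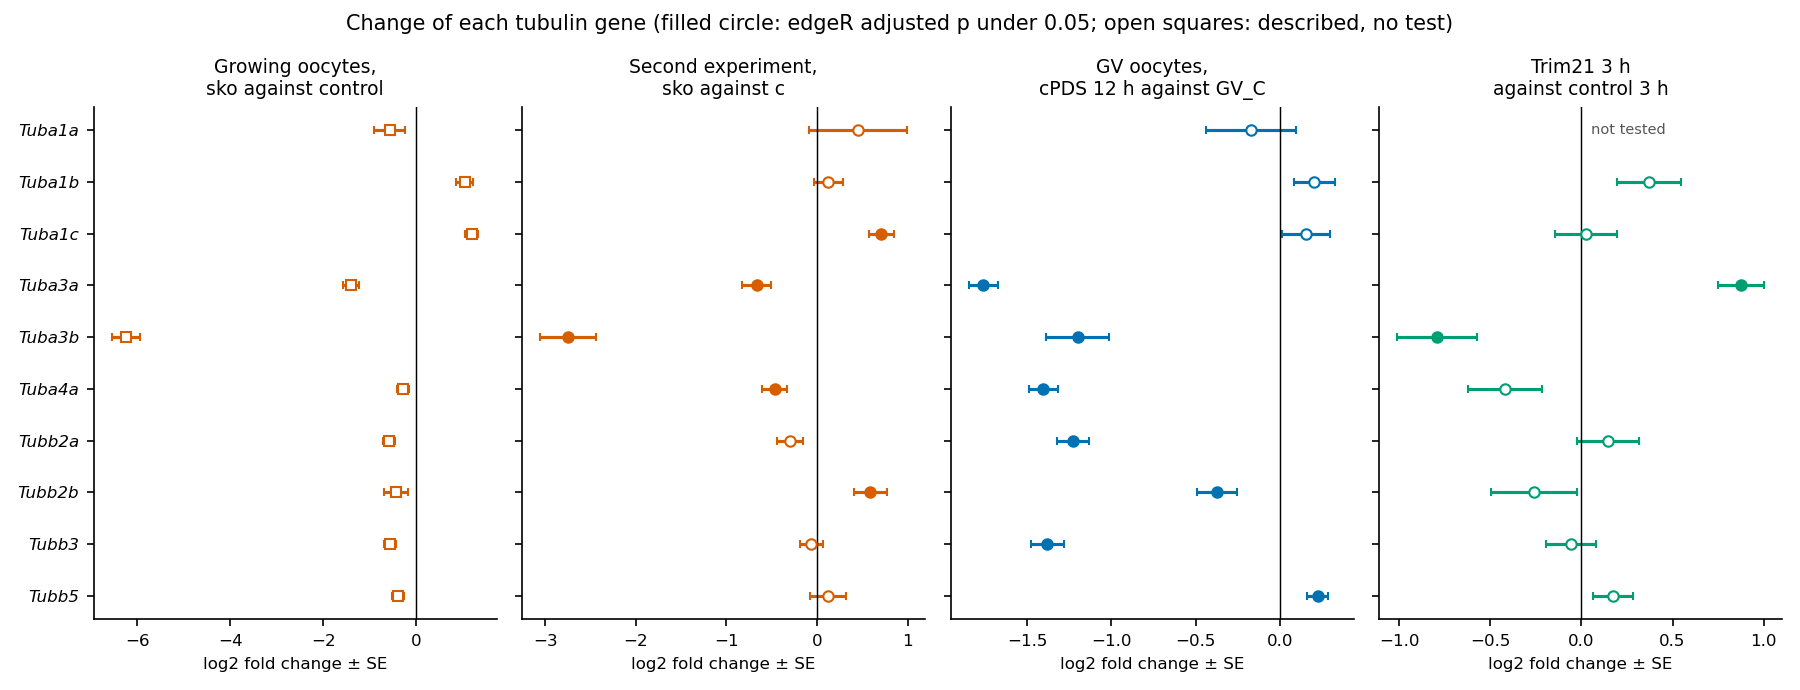
Log2 fold change of each tubulin gene (x axis, range differs between panels) with its SE, in 4 comparisons. Open squares in the growing panel are described without a test, filled circles in the other panels mark an edgeR adjusted p under 0.05. Tuba3b is the lowest point in both sko panels, Tuba3a and Tuba3b part in the Trim panel, and cPDS leaves Tuba1b, Tuba1c and Tubb5 at or above 0.

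The balance within the Tuba3 pair can be read inside each library, free of any scaling between libraries. It still depends on how reads shared by both copies were counted, which is not stated. Tuba3b took 10.3% (95% Wilson interval 9.90% to 10.6%), 10.6% (10.2% to 11.1%) and 8.38% (7.93% to 8.86%) of the counts of the pair in growing control. In growing sko it took 0.349% (0.228% to 0.533%), 0.533% (0.393% to 0.722%) and 0.274% (0.184% to 0.408%). These intervals cover counting error only. The second experiment had a lower share in its controls, 3.98 ± 1.14% (SD, 3 deep c libraries), and 0.946 ± 0.174% in the 3 deep sko libraries, and the groups did not overlap. Trim controls carried the highest share of these groups, at 25.5%, 18.4% and 27.1%, against 7.80%, 10.7% and 9.21% in Trim21. The Trim libraries were counted apart, over 37310 features beside 33924 in the other experiments. In GV oocytes the share was 5.78 ± 1.44% in GV_C and 8.26 ± 2.101% with cPDS, with overlapping groups. An exact two-sided permutation test over 3 against 3 libraries cannot go below 0.1, and in the second experiment it pooled libraries with and without DRB. It gave 0.1 for the second experiment and Trim and 0.2 for cPDS, and 0.125, 0.125 and 0.231 after adjustment over the 15 tests of shares and sums. In the second experiment and in Trim the share was lower without overlap in the libraries with less Dhx36, while the level of Tuba3a was lower in the second sko set and higher in Trim21.

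**Figure D3:**
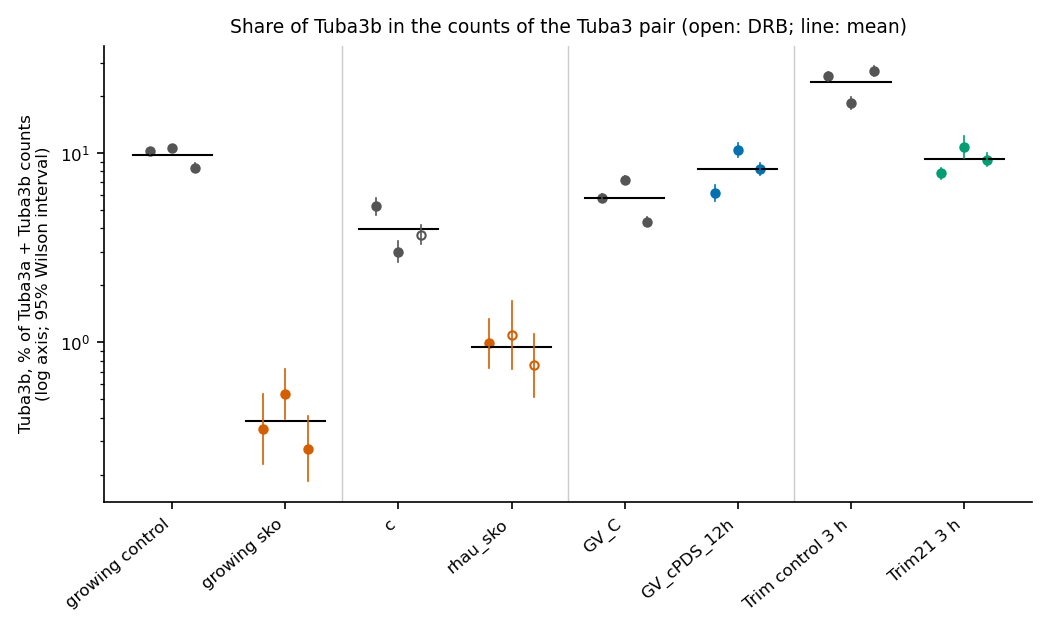
Counts of Tuba3b as a percentage of the counts of Tuba3a and Tuba3b together (y axis, log scale) in each library, by group. Vertical lines are 95% Wilson intervals, horizontal lines are group means and open points are libraries with DRB. The share is 8.38% to 10.6% in growing control and at most 0.533% in growing sko.

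The 8 alpha-tubulin genes of the table were also summed per kilobase as an alpha pool. In growing oocytes it was 694 ± 139 CPM per kilobase in control and 588 ± 25.8 in sko (SD, n = 3), with the range of sko inside that of control. Its make-up differed: Tuba1c made up 17.6 ± 1.20% of it in control and 47.1 ± 5.13% in sko, and the Tuba3 pair 54.2 ± 3.18% and 22.3 ± 4.32%. In the second experiment Tuba1c went from 12.2 ± 1.42% to 24.4 ± 1.98% of the alpha pool. With cPDS the alpha pool was 2.33-fold lower (459 ± 28.7 to 196 ± 17.6) and the pool of 8 beta-tubulin genes 2.72-fold lower (840 ± 99.1 to 309 ± 14.0), without overlap. In Trim the alpha pool was 200 ± 33.3 in control and 257 ± 33.5 in Trim21, and the beta pool 380 ± 74.2 and 376 ± 45.6. The ratio of the alpha to the beta pool was 0.529 ± 0.0213 in Trim control and 0.683 ± 0.0109 in Trim21. It was 0.591 ± 0.0528 in the deep c libraries and 0.488 ± 0.0326 in the second sko set, libraries with DRB included. In GV oocytes it was 0.548 ± 0.0326 in GV_C and 0.636 ± 0.0281 with cPDS. Each of these ratios separated its groups, at the smallest exact permutation p of 0.1 (adjusted p = 0.125). In growing oocytes the ratio was 1.96 ± 0.356 in control and 1.92 ± 0.193 in sko. Growing oocytes were the one set in which alpha transcripts outnumbered beta transcripts on this scale.

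**Figure D4:**
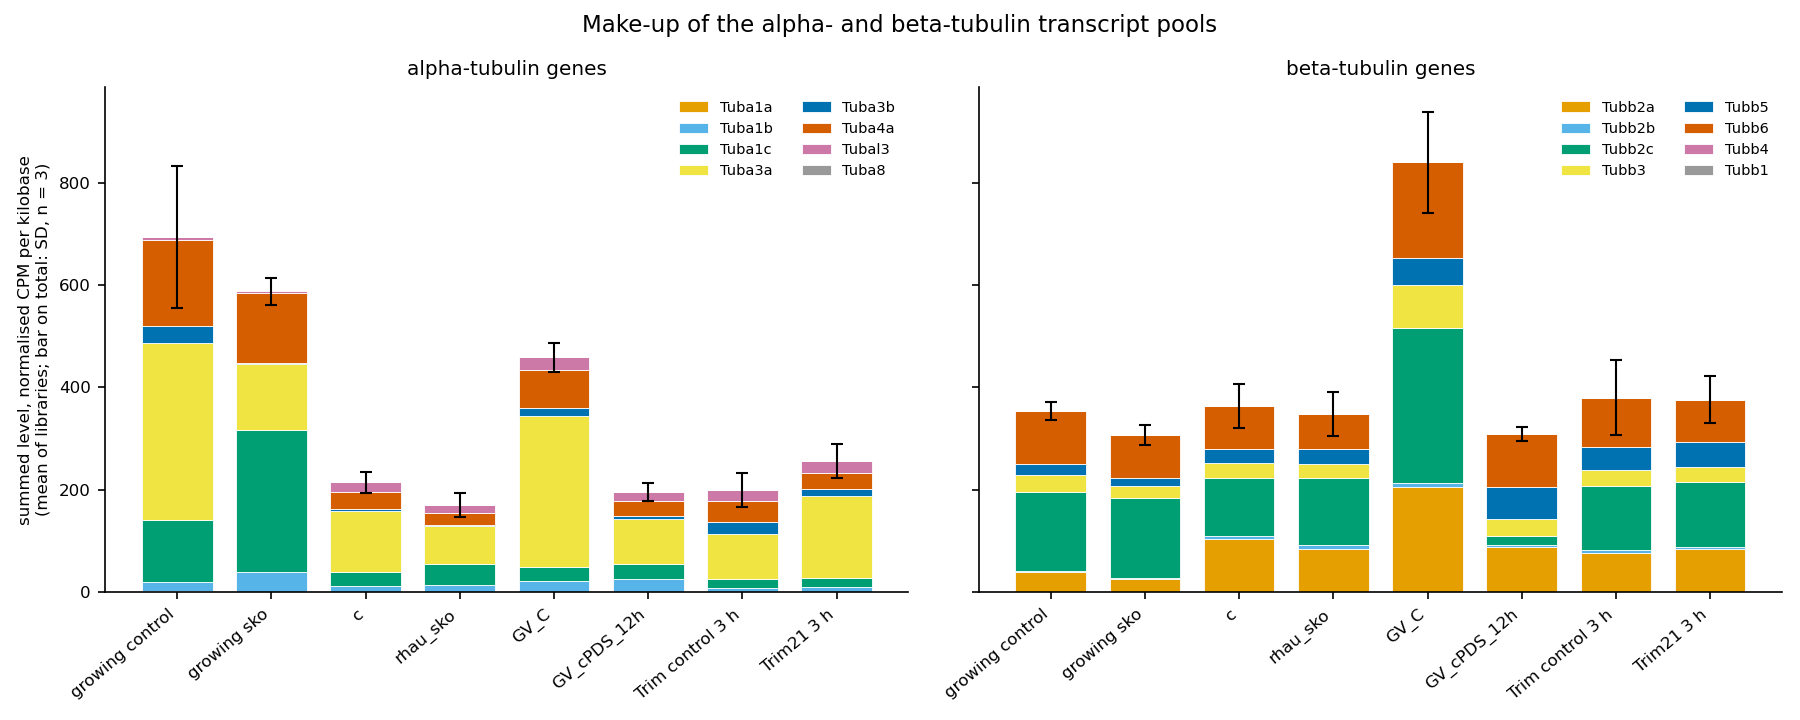
Summed level of the 8 alpha-tubulin genes (left) and the 8 beta-tubulin genes (right) in normalised CPM per kilobase, by group, with each gene's mean stacked in its own colour and the SD of the sum over 3 libraries as the bar on top. Tuba1c grows and Tuba3a shrinks in growing sko, and Tubb2c is the largest beta band in GV_C and a thin one with cPDS.

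Among the beta-tubulin genes, the largest fall with cPDS was in a gene outside the 10, while Tubb2a, Tubb3 and Tubb6 fell as well. Tubb2c (now named Tubb4b), a widely expressed beta isotype, fell from 694, 541 and 666 CPM to 38.6, 39.1 and 33.2 CPM, a log2 fold change of -4.10 ± 0.10 (edgeR adjusted p = 5.1e-13), and from 36.1 ± 0.426% to 5.73 ± 0.351% of the beta pool. Tubb5 made up 6.42 ± 0.658% of the beta pool in GV_C and 20.2 ± 0.723% with cPDS. Tubb6 fell by 0.85 ± 0.08 and the divergent alpha gene Tubal3 by 0.39 ± 0.08 (edgeR adjusted p = 2.7e-07 and 0.00136). Tubb2c was not called in the second sko set (0.21 ± 0.13, adjusted p = 0.236) or in Trim (-0.00 ± 0.16, adjusted p = 0.995). Of the tubulins outside the polymer, the gamma-tubulin gene Tubg2, part of the complex that starts microtubules, fell by 0.97 ± 0.14 in the second sko set (adjusted p = 0.000335) and rose by 0.34 ± 0.07 with cPDS (adjusted p = 0.00138). Tubg1 fell in the second sko set by 0.86 ± 0.20 (adjusted p = 0.00655) and with cPDS by 0.31 ± 0.10 (adjusted p = 0.0132). The epsilon-tubulin gene Tube1 fell with cPDS by 1.11 ± 0.09 (adjusted p = 7.9e-08) and in the second sko set by 0.44 ± 0.12 (adjusted p = 0.0188). The delta-tubulin gene Tubd1, known from centrioles, rose in Trim21 by 0.71 ± 0.15 (adjusted p = 0.00881) and fell with cPDS by 0.74 ± 0.07 (adjusted p = 5.14e-07).

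Genes that work with tubulin were read from 3 lists, chosen with earlier results of these data known. Their counts stand against the share of all genes called higher and lower, 28.5% and 25.2% in growing sko, 19.2% and 16.8% in the second sko set, 23.4% and 27.4% with cPDS and 6.26% and 5.23% in Trim. Of 21 folding and autoregulation genes tested (the tubulin cofactors, the CCT chaperonin, prefoldin, Arl2 and Ttc5), 4 were higher and 7 lower in growing sko, 2 and 7 in the second sko set, 3 and 8 with cPDS and 2 and 1 in Trim. Their medians were -0.16, -0.11, -0.09 and 0.03, beside 0.02, 0.01, 0.01 and -0.01 over all genes. Arl2, a small GTPase that works with the tubulin cofactors, was 141 ± 6.76 CPM in growing control and 60.5 ± 3.00 CPM in sko, and it fell by 1.43 ± 0.12 on the log2 scale in the second sko set (edgeR adjusted p = 1.02e-05). With cPDS the cofactor gene Tbcc fell by 2.14 ± 0.11 (adjusted p = 3.74e-10) and the prefoldin gene Vbp1 rose by 0.53 ± 0.07 (adjusted p = 1.79e-05). In Trim21 the cofactor gene Tbcd fell by 1.14 ± 0.22 (adjusted p = 0.00568) and the chaperonin gene Cct6a rose by 1.44 ± 0.37 (adjusted p = 0.0238).

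Among enzymes that modify tubulin, 5 of 22 tested were higher and 7 lower in growing sko, 3 and 7 of 24 in the second sko set, 4 and 8 of 22 with cPDS and 1 and 3 of 22 in Trim. Agtpbp1, which removes glutamates from the tubulin tail, was 24.7 ± 0.192 CPM in growing control and 55.8 ± 3.44 CPM in sko, and it rose by 1.43 ± 0.13 in the second sko set (edgeR adjusted p = 1.58e-05). Hdac6, a tubulin deacetylase, fell by 1.89 ± 0.29 there (adjusted p = 0.000556). In Trim21 another enzyme of the same deglutamylase family, Agbl2, fell by 2.42 ± 0.23 (adjusted p = 2.81e-05), and the glutamylase gene Ttll1 rose by 1.33 ± 0.16 (adjusted p = 0.000175). With cPDS the glycylase gene Ttll10 rose by 0.80 ± 0.13 (adjusted p = 0.00012) and Ttll11 fell by 0.43 ± 0.06 (adjusted p = 4.35e-05).

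Of genes of microtubule dynamics and nucleation, 2 were higher and 15 lower of 34 tested in growing sko, and 1 and 7 of 35 in the second sko set, with medians of -0.20 and -0.24. The 7 lower genes of the second set are near the 16.8% of all genes called lower there. With cPDS 10 were higher and 12 lower of 36, and in Trim 1 and 2 of 35. DRB gave no call in any of the 3 lists. Mapre1, which tracks growing microtubule ends, rose by 0.75 ± 0.10 in the second sko set (edgeR adjusted p = 0.00023), and Camsap3, which binds minus ends, fell by 1.58 ± 0.27 (adjusted p = 0.00126). With cPDS the augmin gene Haus7 fell by 1.40 ± 0.10 (adjusted p = 1.41e-08) and the severing enzyme gene Spast rose by 0.59 ± 0.07 (adjusted p = 1.97e-06). In Trim21 2 subunits of augmin, which branches spindle microtubules, parted: Haus1 fell by 1.30 ± 0.13 (adjusted p = 4.58e-05) and Haus8 rose by 1.09 ± 0.17 (adjusted p = 0.0012).

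Across the 18 deep libraries of the first table, the members did not move as a block. Pearson correlations of log2 CPM between members ranged from -0.87 (Tuba1c and Tubb2a) to 0.80 (Tubb2a and Tubb5), with 0.73 for Tuba3a and Tuba3b. The libraries share their experiment, depth and preparation, so these values only describe how levels line up over 3 experiments. The gene most like Tuba3b among 12806 was Armc10 (r = 0.956), followed by the proteasome gene Psmc1 (0.929) and the amino acid transporter gene Slc7a2 (0.918). For Tuba1c these were Bnip3l (0.981), known from mitophagy, the splicing factor gene Sf3b4 (0.978) and Gm16512 (0.970). The likest genes of the others were Fsd1 for Tuba3a (0.958), Maea for Tuba4a (0.989), Vars2 for Tuba1b (0.933), Gm9833 for Tuba1a (0.740), E130306D19Rik for Tubb2a (0.987), mt-Tq for Tubb2b (0.959), Rbms2 for Tubb3 (0.929) and Fgd6 for Tubb5 (0.961).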

How the data were processed

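The authors deposited whole-number counts of reads for each gene, unnormalised, with the columns of a featureCounts table per the file headers. Build mm9, featureCounts 2.0.1, STAR 2.5.2b, HISAT2 2.1.0, cutadapt 1.15 and fastp 0.21.0 stand in the submitters' processing notes, without roles. Neither the strand setting nor the handling of reads that match several genes is stated there. The Trim table was joined to the other by identical exons (10 of 10 members, 33581 of 37310 features).

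The counts went into edgeR 4.0.16 (R 4.3.3): filterByExpr (minimum count 10), TMM scaling and a quasi-likelihood test, with Benjamini-Hochberg adjusted p-values over all genes tested and a threshold of 0.05. SE is the size of the log2 fold change divided by the root of F. The growing, GV and Trim comparisons used their own 6 libraries. The second experiment was 1 model of 6 libraries with additive terms for genotype and DRB. Libraries under 200000 counts were left out. Likeness between genes used log2(CPM + 1) of genes with a mean of at least 1 CPM. The code was tested on simulated data. Exact permutation tests of shares and sums were two-sided and were chosen after seeing the data. They did not adjust for DRB, which 1 deep c library and 2 deep sko libraries carried.

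The members and gene lists were chosen with earlier results of these data known. All 10 members are named, with the other tubulins, the called gene of smallest p in each list and direction (some are left out of the text), and the 3 genes most like each member. The gene tests of the members, and the counts of calls over members and over all genes, were recomputed with DESeq2 1.42.0, library size alone, no low-count filter, a minimum count of 50, near-identical copies summed and each library left out, in the second experiment also with the shallow libraries kept, and in GV and Trim with a replicate block. Shares, sums, counts over the other lists and correlations were not recomputed. Other assays were not analysed here.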

Additional observations from a re-analysis of the deposited data

Results flagged for a closer look

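Tubb2b differed in direction between the sko sets. Its log2 fold change was -0.43 ± 0.26 (SE) in growing oocytes, where the highest sko library (3.25 CPM) lay just below the lowest control (3.27 CPM). In the second experiment it was 0.59 ± 0.19, and every deep sko library lay above every deep c library. Summed with Tubb2a, the value there was -0.22, and how reads shared by the copies were counted is not stated. The difference between the sets was not tested and the level in growing oocytes was low (3.04 to 5.90 CPM). With the 2 shallow libraries kept, the call in the second experiment was lost.

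One of the 2 shallow libraries, which entered no comparison, also showed a high value of Tubb2b. In rhau_sko replicate 6 it was 39.1 CPM, on 5 counts of 127927, with a 95% Wilson interval of 16.7 to 91.5 CPM that covers counting error only, beside 11.8 CPM in the highest deep c library. Mitochondrial genes took 9.41% of the counts of this library. Dhx36 in this library was at 46.9 CPM on 6 counts (21.5 to 102 CPM), the level of the c libraries. Tuba3b had 0 counts in it, which allows up to 23.5 CPM at 3 counts and so covers every library of the second experiment. In c_DRB replicate 4 Tuba3b had 2 counts (15.5 CPM, 4.25 to 56.4 CPM). Such counts separate few members from either genotype.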

How the results depend on the processing

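Tuba3b in the second sko set, Tuba3a, Tuba3b, Tuba4a, Tubb2a, Tubb3 and Tubb5 with cPDS, and Tuba3a in Trim kept direction and call under every alternative run. The number of members called stayed within 1.5 times of 7 in growing oocytes (6 to 8 with each library left out) and of 7 with cPDS (6 to 8). It was 0 for DRB in every setting. In the second sko set it was 5, with 2 to 5 when a library was left out and 3 with the shallow libraries kept. In Trim it was 2, with 1 to 3 when a library was left out. Over all genes, calls moved by over 1.5 times for DRB (237 higher and 234 lower by DESeq2, 254 and 238 without the low-count filter), in the second sko set without c_DRB replicate 3 (2097 and 1581) or rhau_sko replicate 5 (1990 and 2029), and in Trim without Trim21 replicate 1 (562 and 481) or 3 (513 and 415). Whether the replicate numbers shared by the GV groups and by the Trim groups pair libraries is not stated. Same-numbered libraries correlated at -0.059, -0.033 and -0.037 in GV and at 0.075, 0.091 and -0.049 in Trim. These are deviations from means of only 3 libraries, so they cannot decide it. With a replicate block the members called numbered 7 with cPDS and 2 in Trim. Summing near-identical copies gave a positive value to Tuba3b (0.61) and Tubb2b (0.12) in Trim and to Tuba1a with cPDS (0.17), and a negative value to Tubb2b in the second sko set (-0.22) and for DRB (-0.004), and moved Tuba1a in growing sko from -0.57 to 1.17, by construction the value of the sum, which each copy then takes. Other signs turned in members that were not called, given as ranges over the fits that left out a library: Tuba1c with cPDS (-0.0081 to 0.32, negative without GV_C replicate 2), in Trim Tuba1c (-0.13 to 0.14, and -0.096 without control replicate 2), Tubb2a (-0.034 to 0.26, and -0.015 without control replicate 2) and Tubb3 (-0.16 to 0.0083, and 0.0038 without Trim21 replicate 2), and in the second sko set Tubb5 (-0.24 to 0.44, -0.071 without c replicate 2, and -0.0090 with the shallow libraries kept), Tubb2a (-0.68 to 0.031) and Tubb3 (-0.30 to 0.13), the last pair positive without c_DRB replicate 3. The cause was not tested. Depth limited Tuba1a, at under 3 CPM in every library.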
